A study of Homo sapiens with 8 samples.

Results

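The genes described are the subunits of the mitochondrial respiratory chain and of the ATP synthase, the machines that turn the energy of nutrients into ATP. They were chosen by a rule on gene symbols, with earlier results of these data known. The rule found 90 genes, of which 77 are encoded in the nucleus and 13 in mitochondrial DNA. By complex, 43 belong to complex I, 4 to complex II, 9 to complex III, 14 to complex IV and 20 to complex V, the ATP synthase. The study treated a pair of human colorectal cancer cell lines with Z325 (ZINC000101867325) and compared them with control cells. Z325 is a small molecule found by docking as a possible inhibitor of fibroblast growth factor receptors (FGFRs). The study also reports that it bound the FGFR1 kinase domain and lowered FGFR phosphorylation in treated cells. HCT116 is an epithelial colorectal carcinoma line and NCI-H716 is a colorectal line with neuroendocrine features, and each was sequenced as 2 control and 2 Z325 libraries, made from RNA amplified from about 100 cells per reaction. The labels give neither a dose nor a duration and call the treated libraries only a test group, and the cells carry no stated edited allele or transgene. Because each group is 1 cell line sampled 2 times from small reactions, p-values measure the spread between these libraries.

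The total count was 13339282 and 13183792 in the HCT116 control libraries and 13396225 and 3434620 in the Z325 libraries, so the last library was the shallowest. The NCI-H716 libraries held between 10210239 and 19738840 counts. The HCT116 table used here ends on chromosome 9, holds 28043 genes and lists 30 of the 90 members, all nuclear, against all 90 members among 63241 genes in NCI-H716. Mitochondrion-encoded genes therefore have values in NCI-H716 alone. All 30 members in HCT116 and 89 of 90 in NCI-H716 passed the filter on low counts, the exception being ATP5MGL, a copy of an ATP synthase subunit gene, with 8, 5, 4 and 4 counts. The epithelial surface protein EPCAM was present in both lines. It had at least 5665 counts in each HCT116 library and at least 506 in each NCI-H716 library. In HCT116, 3 of the 9 epithelial and intestinal markers were listed, and only 1 had at least 10 counts in every library. In NCI-H716 all 9 were listed, and 6 had at least 10 counts in every library. The neuroendocrine granule proteins CHGA and CHGB reached at least 1062 and 5411 counts in every NCI-H716 library. The intestinal factor CDX1 was listed at 0 in all NCI-H716 libraries, while CDX2 of the same list had at least 154 counts there. The fibroblast-associated genes COL3A1 and LUM had at least 2730 and 2328 counts in NCI-H716, but COL1A2 had 11, 26, 3 and 16. Of the 9 fibroblast and blood markers, 4 had at least 10 counts in every NCI-H716 library. Summed over lists, the 9 epithelial and intestinal markers were at 767 and 756 CPM (counts scaled to the plain library total, without TMM) in control and 644 and 646 CPM in Z325 libraries of NCI-H716, the 6 neuroendocrine markers at 581 and 681 against 729 and 942, and the 9 fibroblast and blood markers at 516, 505, 513 and 484. CHGB held most of the neuroendocrine sum, with 458 and 525 CPM (TMM-scaled) in control and 585 and 765 CPM in Z325 libraries. Of the 5 neuroendocrine markers tested, 4 had a log2 fold change above 0, and SYP was below 0 at -0.71. Of the 5 fibroblast and blood markers tested, 2 were above 0 and 3 below 0, COL3A1 being at 0.39 and LUM at -0.67. The part of these shifts in the values below was not tested.

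Complex I takes electrons from NADH, complex II takes them from succinate, complex III passes them through cytochrome c to complex IV, and complex IV hands them to oxygen. The proton gradient made by complexes I, III and IV drives the rotary ATP synthase. A small core of subunits is read from mitochondrial DNA, as long transcripts that are processed into single messages, while the other subunits are nuclear genes whose proteins are imported, so assembly needs both genomes. In many tissues the nuclear genes share promoter motifs for the nuclear respiratory factors and related regulators, and colorectal cancer cells combine respiration with high glycolysis.

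Those motifs were present in the reference promoters of the members. RefSeq promoters on GRCh38.p14, each 300 bases long with 250 before and 50 after the annotated start, were matched by symbol for 63 nuclear members. The NRF1 motif GCGCATGC, searched on both strands, was found for 14 of 63 members (22.2%) and for 3.68% of 27305 genes. The ETS motif CCGGAAGT, of the kind bound by GABPA, was found for 12 of 63 members (19.0%) and 4.95% of all genes, and the YY1 motif AAGATGGC for 12 of 63 (19.0%) and 3.52% of all genes. Any of these was held by 31 of 63 members (49.2%) and by 11.2% of all genes. GCGCATGC and its reverse complement GCATGCGC can overlap, and each gene is counted once. The 4 stretches of promoter below, each upstream of the start and written 5′ to 3′ on the strand of the gene, are shown because they belong to the members with the lowest and highest log2 fold change in NCI-H716 among those with the NRF1 motif (NDUFS7 and ATP5PF) and the ETS motif (COX8A and UQCRQ, after ATP5PF, which holds both) on either strand. Capitals mark the motif. They come from chr19:1383788-1383887 (plus strand), chr21:25735121-25735220 (minus strand), chr11:63974555-63974619 (plus strand) and chr5:132866542-132866641 (plus strand).
NDUFS7: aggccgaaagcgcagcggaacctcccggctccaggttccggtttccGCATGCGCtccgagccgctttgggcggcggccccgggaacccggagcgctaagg
ATP5PF: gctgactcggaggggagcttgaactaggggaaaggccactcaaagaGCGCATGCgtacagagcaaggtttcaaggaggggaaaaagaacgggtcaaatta
COX8A: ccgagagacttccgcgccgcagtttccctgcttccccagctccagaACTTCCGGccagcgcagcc
UQCRQ: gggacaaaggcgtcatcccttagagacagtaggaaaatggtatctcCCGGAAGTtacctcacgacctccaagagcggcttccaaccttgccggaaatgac
The members with the NRF1 letters had a median log2 fold change of 0.13 in NCI-H716 (n = 14, 10 of them above 0), and those without had a median of -0.02 (n = 49, 24 above 0). For the ETS letters the medians were 0.08 (n = 12) and 0.00 (n = 51), and for the YY1 letters 0.05 (n = 12) and 0.05 (n = 51). In HCT116 the order of the medians for the NRF1 letters was the other way. The median was 0.13 for members with them (n = 6, 5 above 0) and 0.23 for those without (n = 14, 9 above 0). A match describes the letters in these windows and says nothing of binding in these cells.

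The level of a message per length was first ordered within the control libraries of each line. In NCI-H716 the highest member was NDUFB9, an accessory subunit of complex I, with 57426 and 58478 TPM (transcripts scaled by length and depth), ahead of MT-CO2, the copper-binding subunit of complex IV, with 42407 and 37224 TPM. NDUFB9 ranked number 1 among all genes in every NCI-H716 library, and its control TPM was 15.1 and 16.5 times that of the next nuclear member. The next in order were MT-ND4L at a mean of 13170 TPM, MT-ND4 at 9613, MT-CO3 at 8162, MT-ATP6 at 7084 and MT-CO1 at 7055 TPM. MT-ATP6 and MT-CO1 did not differ beyond the range of the 2 libraries, and the same held for 68 of the 88 neighbouring pairs in the order. The lowest member that passed the filter was NDUFV3, a small accessory subunit of complex I, at a mean of 12.1 TPM. SDHC, the membrane anchor of complex II, stood next at 28.9 and 23.1 TPM.

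**Figure D1:**
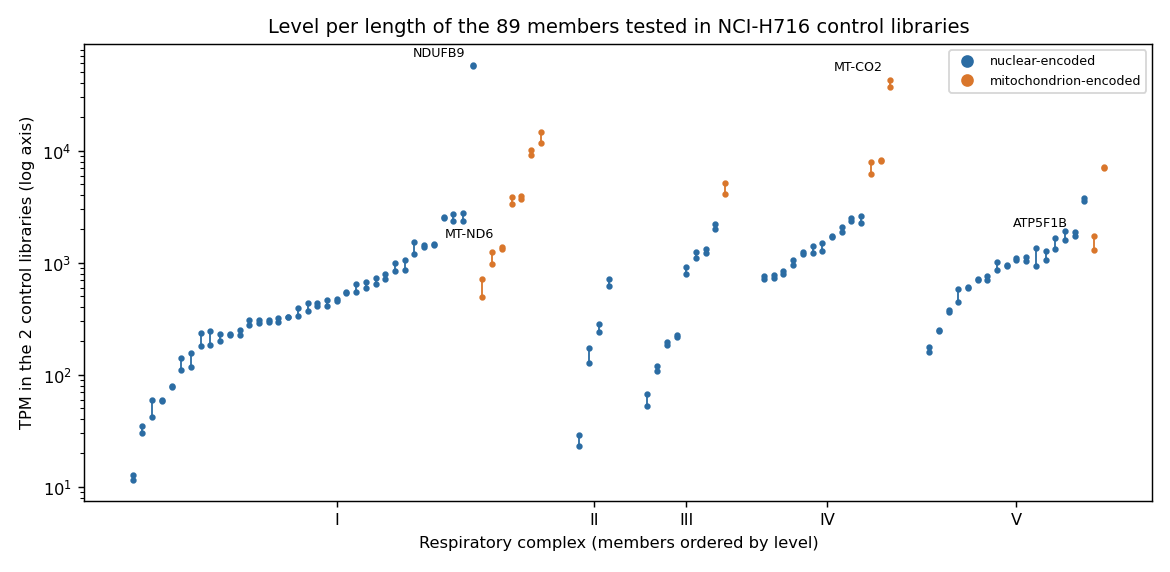
Level per length of each tested member in the 2 NCI-H716 control libraries, in TPM on a log axis, grouped by complex and ordered by level, with nuclear genes in blue and mitochondrion-encoded genes in orange and a line joining the libraries. NDUFB9 lies above every other gene, and 8 of the 10 highest members are mitochondrion-encoded.

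Relative to the other nuclear members listed for each line, NDUFB9 stood far higher in NCI-H716 than in HCT116. In NCI-H716 its TPM was 57426 and 58478 in control and 70428 and 60870 in Z325 libraries. Its counts made 3.46%, 3.41%, 4.05% and 3.58% of all counts, and its TPM was 88.2 to 107 times the median of the other nuclear members. In HCT116, computed with the effective lengths of the NCI-H716 tables, it was 1.91 to 2.45 times that median. That computation was chosen after the values were seen. Neighbouring genes were not at comparable levels in NCI-H716, where MTSS1, which shares 12.1% of the exon bases of NDUFB9 on the other strand, had 331 to 367 TPM and TATDN1 had 192 to 252 TPM. The more distant PVT1 had 836 to 1731 TPM. In HCT116 the same computation gave TATDN1 729 to 1015 TPM and MTSS1 at most 1.56 TPM. The HCT116 TPM and FPKM are scaled to the genes of its table alone, which ends on chromosome 9. They are therefore not on the same scale as the TPM of NCI-H716. The lines were also quantified by different programs, so a difference between lines and one between programs cannot be told apart. NDUFB9 has 3 pseudogenes named after it, so part of its reads could be split or shared. Between groups, levels are given as CPM, which here are counts scaled to the library total after its correction by TMM (edgeR), so they differ slightly from plain shares of counts. NDUFB9 was at 35160 and 33790 CPM in control and 40990 and 35460 CPM in Z325 libraries of NCI-H716, with a log2 fold change of 0.15 ± 0.16 (SE, adjusted p = 0.689, edgeR quasi-likelihood test with Benjamini-Hochberg adjustment).

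In HCT116 the order of levels depended on the length used. With the exon length listed in the table, NDUFS5, an accessory subunit of complex I, was highest at a mean of 3944 FPKM (fragments scaled by gene length and library depth) in control cells and SDHA, the flavoprotein of complex II, lowest at 1.38 FPKM. With the effective lengths of the NCI-H716 tables, COX7A2 of complex IV was highest at 7632 TPM and NDUFS1, the largest iron-sulfur subunit of complex I, lowest at 9.97 TPM. Of 29 neighbouring pairs, 17 overlapped in the first order and 11 in the second. SDHA had 159, 160, 133 and 25 counts, and 6 pseudogenes are named after it, so its reads are uncertain. NDUFS1 had 202, 700, 161 and 296 counts, and its log2 fold change of 0.46 ± 0.80 (SE) was 1.31 without Z325 library 1 and -1.40 without Z325 library 2. Over the 30 members, control levels in the lines had a Spearman correlation of 0.93, with the same lengths used for both lines. A shared divisor can raise such a correlation, and its part was not tested.

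The first comparison asked which members differed between Z325 and control cells in HCT116. No member passed an adjusted p under 0.05 in the edgeR quasi-likelihood test over 6491 genes, of which 5.78% passed. At an unadjusted p under 0.05, 9 of 30 members were higher, against 11.2% of all genes, and 4 of 30 were lower, against 12.7%. Both Z325 libraries lay above both control libraries for 9 members and below them for 7, against 24.8% and 29.0% of all genes. The median log2 fold change of the members was 0.09 and that of all genes was -0.03. DESeq2 called 8 members (4.78% of 14822 genes) and limma on log2(FPKM + 1) called 0, with 10 at an unadjusted p under 0.05. Leaving out the shallow Z325 library 2 gave 18 calls, 13 of them higher (15.2% of all genes called), leaving out Z325 library 1 gave 8 calls, 2 of them higher (14.2%), leaving out control library 1 gave 1 call (0.633%) and leaving out control library 2 gave 0 (0.334%). Without these libraries, in the same order, the median log2 fold change was 0.28, -0.11, 0.09 and 0.12, so its sign depended on the Z325 library. In these fits the lone library of a group is assumed to vary like the others.

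The 14 complex I genes listed in HCT116 had a median log2 fold change of 0.26, and 12 of them were above 0. NDUFS4, an accessory subunit that stabilises the NADH-oxidising arm (chr5:53560633-53683338), was at 658 and 643 CPM in control and 1028 and 868 CPM in Z325 libraries. Its groups did not overlap, with a log2 fold change of 0.55 ± 0.13 (SE, adjusted p = 0.0516, edgeR). NDUFB2 and NDUFA5, also accessory subunits, had log2 fold changes of 0.45 and 0.41. NDUFA10, another accessory subunit, was at 321 and 447 CPM in control and 254 and 267 CPM in Z325 libraries, all Z325 values being lower, with a log2 fold change of -0.56 ± 0.17 (SE, adjusted p = 0.0935, edgeR).

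In complex II the median of the 3 listed genes was -0.41. SDHC (chr1:161314381-161363206) had 113 and 165 CPM in control and 74.8 and 84.5 CPM in Z325 libraries. The groups did not overlap, and the log2 fold change was -0.81 ± 0.21 (SE, adjusted p = 0.0634, edgeR). SDHC has 4 pseudogenes named after it. SDHB, the iron-sulfur subunit, had 2150, 2513, 2641 and 2257 CPM in the same order of libraries, with overlapping groups and a log2 fold change of 0.07 ± 0.14 (SE, adjusted p = 0.818, edgeR).

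The 4 complex III genes had a median of -0.03 with values in opposite directions. UQCRC1, a large core protein that faces the matrix (chr3:48599002-48610976), was at 411 and 622 CPM in control and 298 and 304 CPM in Z325 libraries. Every Z325 value was below every control value, and the log2 fold change was -0.78 ± 0.19 (SE, adjusted p = 0.0522, edgeR). UQCRQ, the small ubiquinone-binding subunit whose promoter is printed above, was at 2139 and 2152 CPM in control and 3299 and 2828 CPM in Z325 libraries. Here every Z325 value was above the controls, with a log2 fold change of 0.51 ± 0.13 (SE, adjusted p = 0.0590, edgeR).

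In complex IV, 4 of 5 genes were above 0 with a median of 0.31. NDUFA4, a subunit once assigned to complex I, was at 1957 and 1783 CPM in control and 2840 and 2352 CPM in Z325 libraries. Its groups did not overlap, with a log2 fold change of 0.47 ± 0.14 (SE, adjusted p = 0.0866, edgeR). COX5B, at 1242, 1357, 1556 and 937 CPM, had a log2 fold change of -0.06 ± 0.21 (SE, adjusted p = 0.913, edgeR), and its 2 Z325 libraries lay on opposite sides of the controls. In the ATP synthase the median of 4 genes was -0.17. ATP5MC3, which encodes the proton-carrying ring subunit, was at 1623 and 1851 CPM in control and 1524 and 1403 CPM in Z325 libraries, with a log2 fold change of -0.25 ± 0.13 (SE, adjusted p = 0.292, edgeR). ATP5ME, a small stalk subunit that shares 61.3% of its exon bases with MYL5 on the other strand, was at 510, 433, 651 and 338 CPM and had a log2 fold change of 0.08 ± 0.26 (SE, adjusted p = 0.907, edgeR). Without Z325 library 1 that value was -0.50 and without Z325 library 2 it was 0.49, and for COX5B the values were -0.49 and 0.29.

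**Figure D2:**
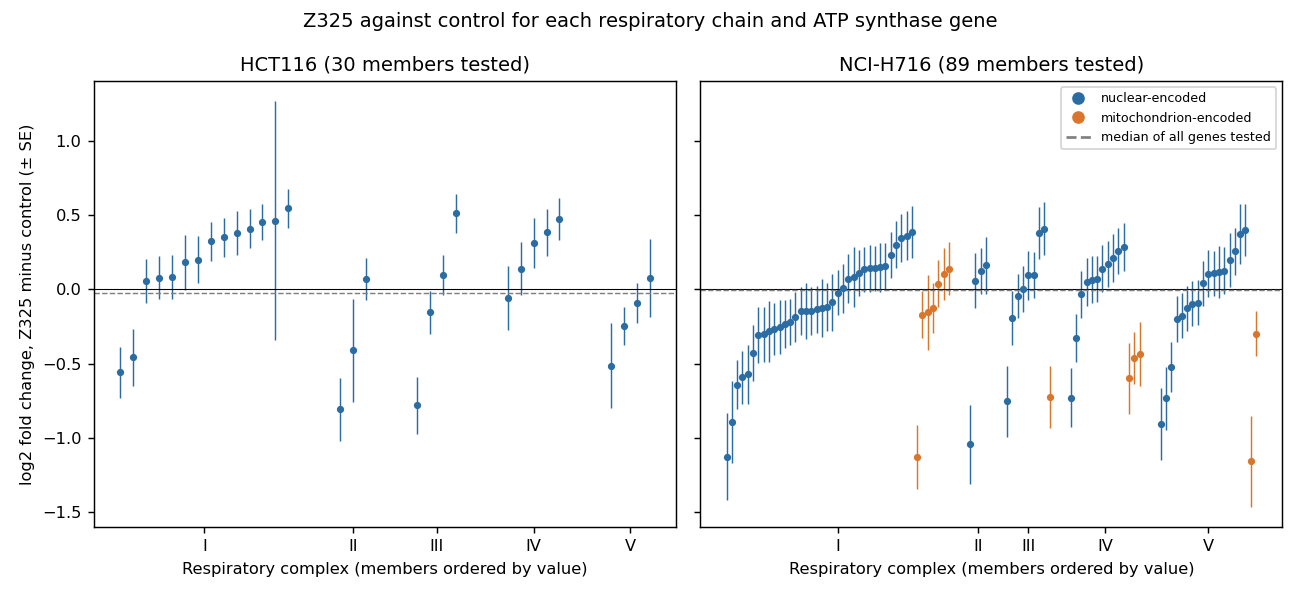
log2 fold change of Z325 minus control with its SE for each member tested, by complex, in HCT116 (left) and NCI-H716 (right), with nuclear genes in blue, mitochondrion-encoded genes in orange and the median of all genes dashed. The longest SE bar in HCT116 is that of NDUFS1, and 10 of the 13 mitochondrion-encoded genes in NCI-H716 lie below 0.

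The same comparison in NCI-H716 also gave no member with an adjusted p under 0.05 over 14142 genes, of which 0.502% passed in the edgeR quasi-likelihood test. At an unadjusted p under 0.05, 2 of 76 nuclear members were higher and 12 were lower, and 0 of 13 mitochondrion-encoded members were higher and 5 lower, against 7.59% higher and 9.27% lower among all genes. Both Z325 libraries lay above both controls for 22 and below for 27 of the 76 nuclear members, against 24.3% and 25.1% of all genes. The median log2 fold change of the nuclear members was 0.00 and that of all genes was -0.01. DESeq2 called 8 members, all lower (0.989% of 31956 genes called), and limma on log2(FPKM + 1) called 0, with 15 at an unadjusted p under 0.05. Leaving out Z325 library 1 gave 22 calls, of which 4 were higher (9.26% of all genes called), leaving out control library 2 gave 4 (1.49%), leaving out Z325 library 2 gave 1 (1.49%) and leaving out control library 1 gave 0 (0.255%).

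In complex I, 22 of the 36 nuclear genes were below 0 and the median was -0.13. NDUFS3, a core subunit of the matrix arm, was at 254 and 220 CPM in control and 159 and 145 CPM in Z325 libraries. Its groups did not overlap and its log2 fold change was -0.64 ± 0.16 (SE, adjusted p = 0.124, edgeR), though it shares 16% of its exon bases with PTPMT1 on the same strand. NDUFS7 and NDUFS8, core subunits that hold the last clusters before ubiquinone, had log2 fold changes of -1.13 and -0.89. When the genes were split by role, a grouping chosen after the values were seen, 6 of the 7 nuclear core subunits were below 0 with a median of -0.28, and 16 of the 29 accessory subunits were below 0 with a median of -0.09. NDUFA1, an accessory subunit needed for assembly, was at 603 and 623 CPM in control and 687 and 913 CPM in Z325 libraries, which did not overlap, with a log2 fold change of 0.39 ± 0.18 (SE, adjusted p = 0.300, edgeR).

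SDHC again had the lowest value of complex II, with 40.7 and 24.9 CPM in control and 17.8 and 14.2 CPM in Z325 libraries of NCI-H716. The groups did not overlap, and the log2 fold change was -1.04 ± 0.26 (SE, adjusted p = 0.122, edgeR). SDHA was at 112, 135, 118 and 158 CPM with a log2 fold change of 0.16 ± 0.19 (SE, adjusted p = 0.716, edgeR), and its groups overlapped. In complex III, UQCRC1 was at 184 and 119 CPM in control and 107 and 73.7 CPM in Z325 libraries, without overlap, and its log2 fold change was -0.75 ± 0.24 (SE, adjusted p = 0.181, edgeR). UQCRB, the subunit that binds ubiquinone together with cytochrome b, was at 211 and 212 CPM in control and 240 and 321 CPM in Z325 libraries, all above the controls, with a log2 fold change of 0.41 ± 0.18 (SE, adjusted p = 0.286, edgeR).

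In complex IV, COX5A was at 729 and 591 CPM in control and 465 and 331 CPM in Z325 libraries. This matrix-side subunit had groups that did not overlap and a log2 fold change of -0.73 ± 0.20 (SE, adjusted p = 0.139, edgeR). NDUFA4 was at 1636 and 1754 CPM in control and 1912 and 2221 CPM in Z325 libraries, higher in each, with a log2 fold change of 0.29 ± 0.16 (SE, adjusted p = 0.391, edgeR). In the ATP synthase, ATP5F1D, the delta subunit of the central stalk, was at 92.4 and 54.2 CPM in control and 40.8 and 37.4 CPM in Z325 libraries. Its groups did not overlap in CPM, with a log2 fold change of -0.91 ± 0.24 (SE, adjusted p = 0.132, edgeR). In TPM, which divides by effective length, ATP5F1D was at 177 and 159 in control and 132 and 180 in Z325 libraries, which overlapped. ATP5PF, a peripheral stalk subunit that shares 34.4% of its exon bases with GABPA on the other strand, was at 373 and 493 CPM in control and 541 and 601 CPM in Z325 libraries, above the controls, with a log2 fold change of 0.40 ± 0.18 (SE, adjusted p = 0.292, edgeR).

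The 13 mitochondrion-encoded genes had a median log2 fold change of -0.30 in NCI-H716, with 10 of 13 below 0. Both Z325 libraries lay below both controls for 7 of the 13 and above them for 0, against 25.1% and 24.3% of all genes. In bulk libraries less of these messages per cell and fewer cells that carry them cannot be told apart. The lowest values were those of the shortest genes. MT-ATP8, a peripheral subunit of the ATP synthase, was at 48.2 and 27.9 CPM in control and 21.4 and 13.0 CPM in Z325 libraries, with a log2 fold change of -1.16 ± 0.31 (SE, adjusted p = 0.129, edgeR). MT-ND4L, a small membrane subunit of complex I, was at 1614 and 1043 CPM in control and 561 and 655 CPM in Z325 libraries. Its groups did not overlap, and its log2 fold change of -1.13 ± 0.21 had the smallest adjusted p of all members in NCI-H716 (SE, adjusted p = 0.0564, edgeR).

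Among the other complex I genes of mitochondrial DNA, MT-ND6, the one encoded on the opposite strand, had 539 and 473 CPM in control and 433 and 466 CPM in Z325 libraries, a log2 fold change of -0.17 ± 0.16 (SE). MT-ND5 had 1510, 1016, 862 and 1408 CPM and -0.15 ± 0.25 (SE), and MT-ND4 had 15240, 13660, 14340 and 12140 CPM and -0.13 ± 0.17 (SE). MT-ND2 had 4015, 4121, 4411 and 3949 CPM and 0.04 ± 0.16 (SE). MT-ND3 was at 160, 174, 159 and 201 CPM with 0.10 ± 0.17 (SE), and MT-ND1 at 3227, 3590, 3233 and 4278 CPM with 0.14 ± 0.18 (SE), all as control 1, control 2, Z325 1 and Z325 2. For MT-ND5, MT-ND4, MT-ND2, MT-ND3 and MT-ND1 the groups overlapped, and for MT-ND6 they did not.

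MT-CYB, the cytochrome b of complex III, was at 6206 and 4842 CPM in control and 3943 and 2737 CPM in Z325 libraries, with a log2 fold change of -0.73 ± 0.21 (SE, adjusted p = 0.157, edgeR). The catalytic core of complex IV had values below 0 for each gene. MT-CO2 was at 25390 and 21020 CPM in control and 19380 and 11270 CPM in Z325 libraries, a log2 fold change of -0.60 ± 0.24 (SE, adjusted p = 0.250, edgeR). MT-CO3 was at 5955 and 5703 CPM against 4823 and 3646 CPM, a log2 fold change of -0.46 ± 0.18 (SE, adjusted p = 0.239, edgeR). For MT-CYB, MT-CO2 and MT-CO3 the groups did not overlap. MT-CO1 was at 13730, 10570, 10760 and 7220 CPM, with overlapping groups and -0.43 ± 0.22 (SE), and MT-ATP6 at 4135 and 4047 CPM in control against 3328 and 3322 CPM in Z325 libraries, without overlap and with -0.30 ± 0.15 (SE). The ribosomal RNAs of mitochondrial DNA, which are read from the same strand, differed in sign, MT-RNR1 having a log2 fold change of -0.25 and MT-RNR2 one of 0.27, with overlapping groups.

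**Figure D3:**
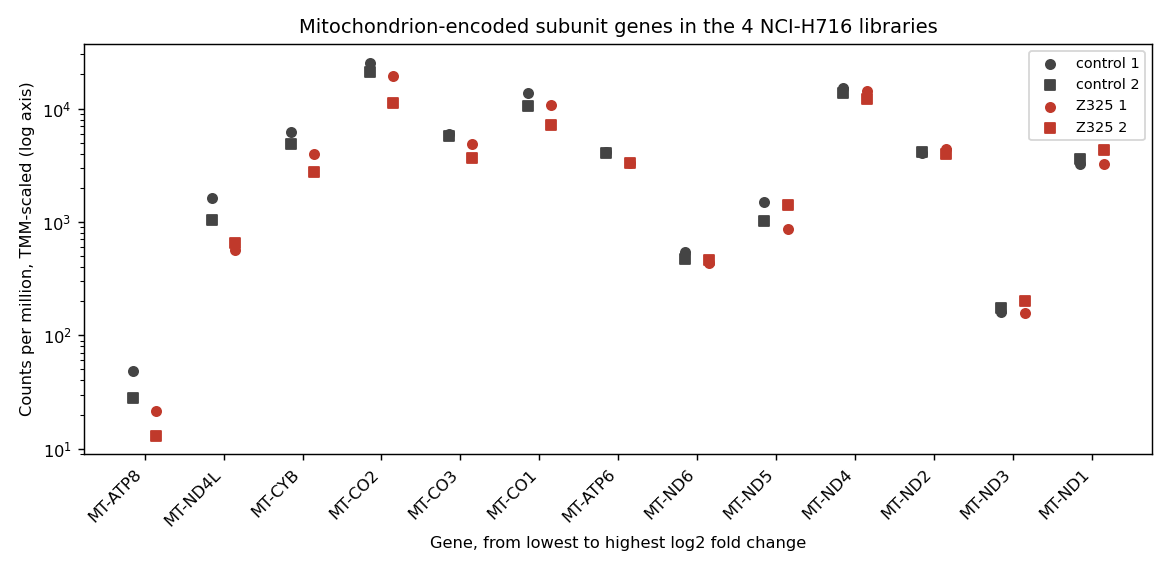
TMM-scaled CPM on a log axis for the 13 mitochondrion-encoded genes in the 4 NCI-H716 libraries, control in grey and Z325 in red, circles for replicate 1 and squares for replicate 2. The genes run from MT-ATP8 with a log2 fold change of -1.16 to MT-ND1 with 0.14, and the groups are apart for 7 of them, all with Z325 below control, against 25.1% of all genes.

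MT-ND4L and MT-ND4 lie on a shared message, as do MT-ATP8 and MT-ATP6. The ratio of MT-ND4L to MT-ND4 in TPM was 1.47 and 1.26 in control and 0.705 and 0.969 in Z325 libraries, so the groups did not overlap (two-sided exact permutation test on the log2 count ratio, p = 0.333, the smallest p that 2 against 2 libraries can give). The ratio of MT-ATP8 to MT-ATP6 in TPM was 0.251 and 0.182 in control and 0.198 and 0.113 in Z325 libraries, which overlapped. Effective length, the number of places a fragment can start, moved with the group for these short genes. It was 82.6 and 67.7 bases in control and 61.3 and 61.1 bases in Z325 libraries for MT-ND4L, which spans 297 bases, and 20.8, 16.0, 13.3 and 13.9 bases for MT-ATP8, which spans 207 bases. On the FPKM scale, which divides by effective length, the log2 difference of log2(FPKM + 1) was -0.81 for MT-ND4L and -0.71 for MT-ATP8, against 0.34 for MT-ND3, the next shortest gene. MT-ATP8 also shares 22.2% of its bases with MT-ATP6. The part of fragment length in these values was not tested further.

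Summed over genes, mitochondrion-encoded members took 8.05% and 7.10% of all counts in control and 6.55% and 5.17% in Z325 libraries of NCI-H716. The nuclear members took 6.87% and 6.86% in control and 7.42% and 7.14% in Z325 libraries. The ratio of mitochondrion-encoded to nuclear counts was 1.17 and 1.03 in control and 0.883 and 0.724 in Z325 libraries. On the log2 scale it was 0.14 ± 0.13 in control and -0.32 ± 0.20 in Z325 cells (SD, n = 2), a difference of -0.46 with groups that did not overlap (two-sided exact permutation test, p = 0.333, the smallest possible). Without the most abundant gene of each kind, MT-CO2 and NDUFB9, the log2 ratio was 0.70 and 0.53 in control and 0.46 and 0.18 in Z325 libraries, a difference of -0.30. Nuclear members without NDUFB9 took 3.41%, 3.45%, 3.37% and 3.57% of counts, which overlapped between groups.

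**Figure D4:**
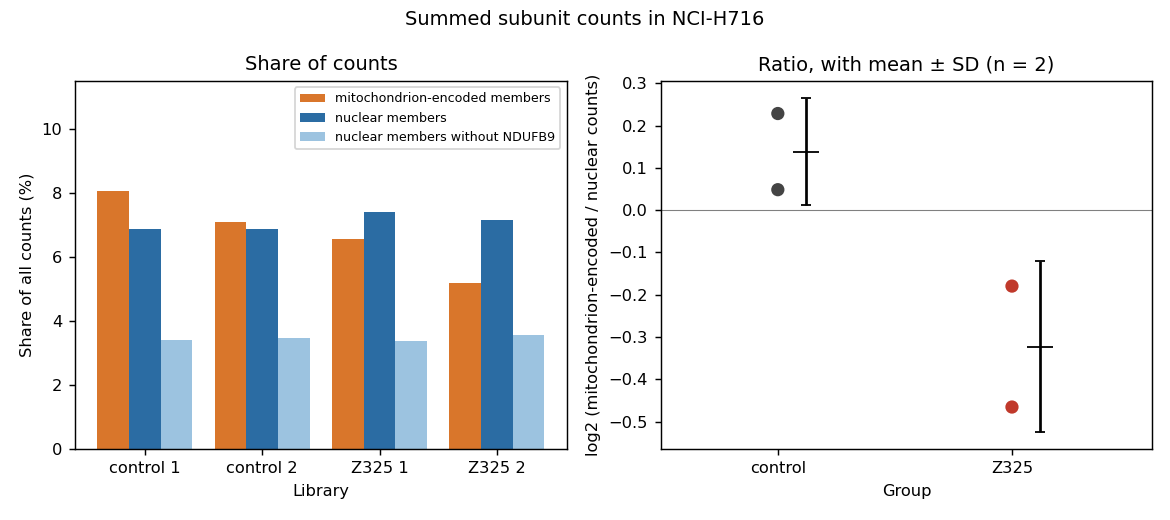
Left, share of all counts in percent taken by mitochondrion-encoded members, nuclear members and nuclear members without NDUFB9 in each NCI-H716 library. Right, the log2 ratio of mitochondrion-encoded to nuclear counts per library (points) with the mean ± SD (n = 2), where both controls lie above 0 and both Z325 libraries below.

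The next question was whether members moved alike in the lines, which share no control library. Of the 30 members tested in both, 24 (80%) had the same sign, 16 above 0 and 8 below 0, against 57.4% of 5014 genes tested in both. The Spearman correlation of the log2 fold changes was 0.53 over the 30 members and 0.23 over all 5014 genes, given as a description since genes are not independent replicates. SDHC and UQCRC1 had the lowest values in HCT116 and were also the lowest of the 30 in NCI-H716. UQCRQ, NDUFS4, NDUFA5 and NDUFA4 were above 0 in both, with values of 0.29 to 0.55. In the fit over all 8 libraries, 0 of 30 members had a Z325 effect that differed between the lines at an adjusted p under 0.05, against 0.0654% of 7642 genes, and 3 did at an unadjusted p under 0.05, against 14.3% of genes. These were NDUFB5, NDUFA2 and NDUFC1, accessory subunits of complex I that were above 0 in HCT116 and below 0 in NCI-H716.

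**Figure D5:**
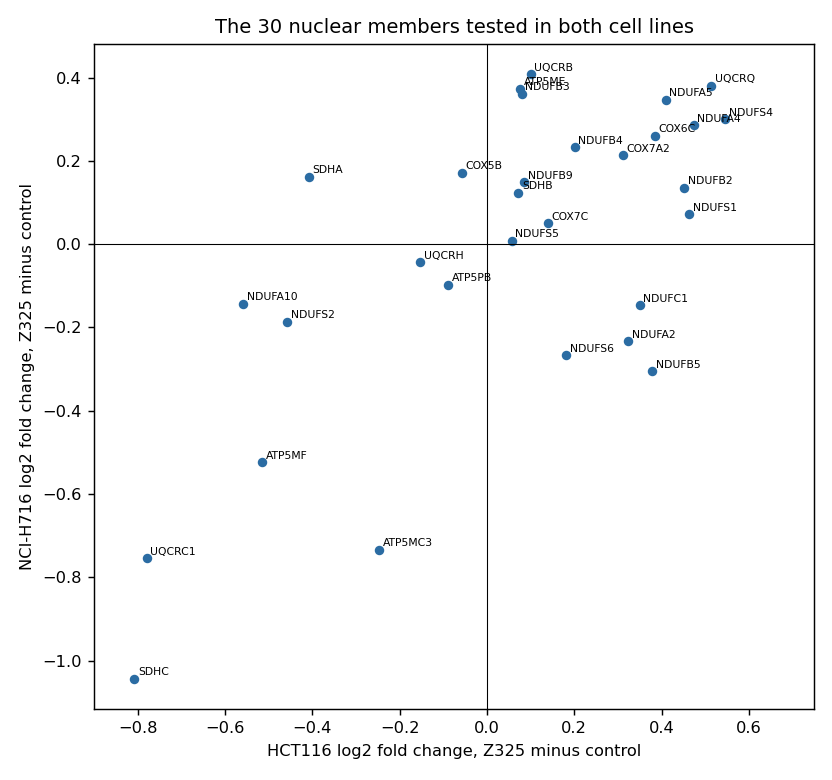
log2 fold change of Z325 minus control in HCT116 (x axis) and NCI-H716 (y axis) for the 30 nuclear members tested in both lines, 1 point per gene. SDHC and UQCRC1 lie at the lower left, and 24 of 30 points share a sign.

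The log2 fold change moved with the base composition of the transcript. Over nuclear members its Spearman correlation with the GC content of the canonical transcript was -0.46 in NCI-H716 (n = 76) and -0.31 in HCT116 (n = 30), and over all genes it was -0.29 (n = 14067) and -0.25 (n = 6490). In NCI-H716 the 32 members with a GC content of 50% or more had a median log2 fold change of -0.16, and the 44 below 50% had a median of 0.09. ATP5F1D, NDUFS7, NDUFB7 and NDUFS8 had GC contents of 69.6%, 66.9%, 64.9% and 63.5%. Low values were not confined to such genes. SDHC, ATP5MC3 and COX5A had log2 fold changes of -1.04, -0.73 and -0.73 in NCI-H716, with GC contents of 46.9%, 38.5% and 45.4%. With the trend over all genes removed, a step chosen after the data were seen, 22 of the 30 members (73.3%) shared a sign between the lines, against 55% of all genes. Transcript length had correlations of -0.12 in NCI-H716 and 0.00 in HCT116 over the members. The part of GC content in the differences between groups was not tested further.

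Genes that build the complexes were read from lists beside the members. In HCT116, 1 of 6 assembly factors of complexes II and III tested, 3 of 12 of complex IV and 1 of 4 of the ATP synthase rose and 0 fell. None of the 8 complex I factors passed, and of all genes 2.83% rose and 2.94% fell (edgeR, adjusted p under 0.05). At an unadjusted p under 0.05, 2 of the 8 complex I factors were above 0 and 1 below 0, against 11.2% and 12.7% of all genes. SMIM20, which holds newly made cytochrome oxidase core protein, rose from 260 and 261 CPM in control to 420 and 438 CPM in Z325 libraries (log2 fold change 0.72 ± 0.12 SE, adjusted p = 0.0171, edgeR). CMC1, which acts on the same early step, rose by a log2 fold change of 0.68, COX17, the copper chaperone, by 0.59, UQCC2, an assembly factor of complex III, by 0.60, and TMEM242, an assembly factor of the ATP synthase, by 0.65. SDHAF4, which helps build complex II, had a log2 fold change of 1.08 and an adjusted p of 0.0504 (edgeR). The complex I factors NDUFAF4 and NDUFAF2 had 0.48 and 0.55, and ATPAF1, a chaperone of the ATP synthase, had -0.27. CYC1, the cytochrome c1 of complex III that the symbol rule did not take in, fell from 1705 and 2733 CPM to 1263 and 1178 CPM (log2 fold change -0.86 ± 0.21 SE, adjusted p = 0.0485, edgeR), and CYCS, cytochrome c itself, had 0.09.

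In NCI-H716 none of the 68 tested genes of these assembly lists, counted once in each list, passed an adjusted p under 0.05 in edgeR. An unadjusted p under 0.05 was reached by 5 genes above 0 and 6 below 0, against 7.59% and 9.27% of all genes. The lowest p belonged to UQCC4 (-0.96) and SMIM4 (-0.69) for complex III, SCO2 (-0.87) and COA4 (-0.71) for complex IV, NDUFAF8 (-0.52) and NDUFAF2 (0.46) for complex I, and TMEM70 (-0.30) and ATP5IF1 (0.17) for the ATP synthase, all as log2 fold changes. COX17, SDHAF4 and NDUFAF2 were above 0 in both lines, at 0.44, 0.91 and 0.46 in NCI-H716. CYC1 had a log2 fold change of -0.65 and an adjusted p of 0.168 (edgeR), and NDUFAB1, the acyl carrier protein of complex I, had -0.23. Of tissue or stress isoforms, NDUFA4L2, a form induced by hypoxia, was at 20.5 and 4.07 CPM in control and 2.06 and 0.955 CPM in Z325 libraries (log2 fold change -3.08 ± 0.68 SE, adjusted p = 0.0917, edgeR), and COX7A2L had 0.20 there and 0.27 in HCT116, where UQCRHL had 0.17.

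For genes that make and handle mitochondrial RNA, 2 of 8 tested in HCT116 fell and 0 rose, against 2.94% and 2.83% of all genes. TBRG4 fell by a log2 fold change of -1.34 (adjusted p = 0.0326, edgeR) and FASTK by -1.81 (adjusted p = 0.0403, edgeR), relatives that act on mitochondrial message stability. In NCI-H716, 0 of 15 passed, and PNPT1 and HSD17B10 had the smallest p, with log2 fold changes of -0.47 and -0.41. None of the 7 and 15 genes of mitochondrial transcription and replication tested in the lines passed (edgeR), their smallest p belonging to MTERF3 (0.37) and TOP1MT (-0.89) in HCT116 and to MTERF3 (-0.35) and TFB2M (-0.30) in NCI-H716. Of the nuclear regulators, NRF1 had -0.79 and PPARGC1B -1.04 in HCT116, and GABPA had 0.47 and YY1 0.44 in NCI-H716, none of which passed.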

How the data were processed

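RNA was measured by sequencing of amplified full-length cDNA from about 100 cells per reaction in 8 libraries. The HCT116 values are raw read counts per gene as deposited by the authors in a table with the layout of featureCounts, with hg38 and Bowtie2 2.5.0 named in the submitters' processing notes. Its 4 broken lines were left out. The NCI-H716 values are RSEM expected counts per gene as deposited, with the TPM and FPKM that the authors computed with RSEM from effective lengths. The study's methods name STAR and RSEM, and which aligner made which table is not given in the sources used here. Lines quantified by different programs were fitted apart, and only the test between the lines joins them.

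Expected counts were rounded to whole numbers. Genes were filtered with filterByExpr, scaled by TMM and tested with the edgeR 4.0.16 quasi-likelihood test (two-sided, Benjamini-Hochberg adjustment over all genes tested, threshold 0.05) in R 4.3.3. Alternatives used DESeq2 1.42.0, limma 3.58.1 on log2(FPKM + 1) or log2(FPKM + 0.1), other scalings and filters, a replicate block and leaving out each library. The edgeR script was tested on simulated data. FPKM in HCT116 were computed from counts and listed exon lengths. Positions, overlaps and GC content are from GENCODE version 44 on hg38. The depth was between 3434620 and 19738840 counts per library, so low genes are least precise in the shallowest library.

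The members and lists were chosen with earlier results of these data known. Named with values were all mitochondrion-encoded members, any member that passed, the nuclear member of each complex with the smallest p in each direction, those with the highest and lowest level, members that did not pass the filter, and of each list the genes that passed and the 2 with the smallest p per line.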

Additional observations from a re-analysis of the deposited data

Results flagged for a closer look

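NDUFA2, an accessory subunit of complex I, had both Z325 libraries above both controls in HCT116 (205 and 225 CPM in control, 276 and 263 CPM in Z325) and below both controls in NCI-H716 (126 and 121 CPM in control, 112 and 98.4 CPM in Z325). The log2 fold change in NCI-H716 minus that in HCT116 was -0.57, with an adjusted p of 0.255 in the edgeR fit over all libraries, so the difference did not pass. NDUFA2 was the only member of the 30 tested in both lines whose libraries moved fully in opposite directions. Of all genes, 24.8% had both Z325 libraries above both controls in HCT116, and 25.1% had them below in NCI-H716. The share of genes that did both was not computed, so this count is not set apart from other genes.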

How the results depend on the processing

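Counts of members with an adjusted p under 0.05 were 0 in edgeR in each line, and below each other count is followed by the share of all genes called. In HCT116 there was 1 with all 8 libraries in 1 fit (5.99%), 5 with at least 10 counts in every library (12.6%), 8 with DESeq2 (4.78%), and 4 each with library size alone (6.1%), no filter (4.61%) and upper quartile scaling (7.01%). In NCI-H716 there were 8 with DESeq2 (0.989%), 12 with no filter (2.43%), and 1 each (MT-ND4L) with library size alone (0.7%), with mitochondrion-encoded genes left out of the scaling (0.544%) and with NDUFB9 left out of the table (0.559%), the last chosen after seeing the data. Limma gave 0 in each line. Leaving out 1 library gave 0 to 18 in HCT116 (0.334% to 15.2%) and 0 to 22 in NCI-H716 (0.255% to 9.26%). The replicate block gave 2 in HCT116 (5.87%) and 25 in NCI-H716, 7 of them higher (16.9%). The numbers pair the libraries by name only, and deviations of same-numbered libraries correlated at -0.02 in HCT116 and 0.29 in NCI-H716. No member differed between the lines under any alternative run, the replicate block included. The Z325 minus control difference in the log2 ratio of mitochondrion-encoded to nuclear counts stayed below 0 in every alternative, from -0.60 to -0.23, and was -0.46 under the replicate block.

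The NCI-H716 nuclear median was 0.11 with all 8 libraries in 1 fit, which tests 30 members, and 0.09 (0.0894, 0.0894 and 0.0895) in the limma fits on FPKM, and the mitochondrion-encoded median was -0.196 in those 3 fits. Leaving out 1 library gave -0.11 to 0.28 for the HCT116 nuclear median and -0.404 to -0.226 for the mitochondrion-encoded median. With the GC trend removed, chosen after seeing the data, the nuclear medians were 0.17 in HCT116 and 0.00 in NCI-H716. Signs turned for ATP5ME in HCT116 in limma (-0.0421, -0.0419 and -0.0419) and for COX5B with upper quartile scaling (0.014). With 1 library left out, values ran from -0.497 to 0.49 for ATP5ME, -0.488 to 0.286 for COX5B and -0.0616 to 0.207 for SDHB in HCT116, and in NCI-H716 from -0.0617 to 0.337 for MT-ND1, -0.0334 to 0.131 for MT-ND2, -0.0601 to 0.272 for MT-ND3, -0.242 to 0.00429 for MT-ND4, -0.536 to 0.167 for MT-ND5 and -0.0538 to 0.367 for SDHA. The cause of these changes was not tested. The mitochondrion-encoded median could not be fitted with all 8 libraries, since HCT116 holds none of these genes here. SDHA had 25 counts in the shallow Z325 library 2 of HCT116, which limits its precision there.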

Other observations

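Proteins of the mitochondrial ribosome, which translates the 13 mitochondrion-encoded messages, had a median log2 fold change of -0.22 over the 78 tested in NCI-H716, with 57 below 0 and 24 lower at an unadjusted p under 0.05 (9.27% of all genes), though none passed an adjusted p under 0.05 in edgeR. Their smallest p belonged to MRPL23, with 93.3 and 71.9 CPM in control and 46.4 and 43.3 CPM in Z325 libraries and a log2 fold change of -0.88, and to MRPS2 with -0.85. In HCT116, 2 of 38 fell and 0 rose, against 2.94% and 2.83% of all genes, and the median was -0.02. MRPS27 fell from 344 and 413 CPM in control to 192 and 195 CPM in Z325 libraries, a log2 fold change of -0.97 ± 0.14 (SE, adjusted p = 0.0108, edgeR), and MRPL37 fell by a log2 fold change of -0.66. Of the tricarboxylic acid cycle enzymes, which feed electrons to complexes I and II, 10 of 13 were below 0 in NCI-H716 with a median of -0.27, none passing, and the smallest p belonged to IDH3G (-0.69) and MDH2 (-0.80). In HCT116 the median over 6 was -0.19, with DLD at 0.41 and FH at -0.31, and none passed (edgeR).

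Reads assigned to nuclear copies of mitochondrial genes cannot be told apart from those of the mitochondrial genes by these tables. In HCT116, where mitochondrial genes were not analysed here, 6 such copies were tested, and 4 of them were above 0, with a median of 0.75. MTCO3P12, MTND4P12, MTCO1P12 and MTCO2P12 had log2 fold changes of 1.36, 1.33, 1.105 and 0.39, none passing (edgeR). Each had its highest CPM in the shallow Z325 library 2, MTCO1P12 being at 24.4, 19.5, 21.2 and 75.6 CPM. Low counts limit these values, with 17, 11, 3 and 20 for MTCO3P12 (SE 1.25), 19, 22, 27 and 21 for MTND4P12 (SE 0.72) and 40, 35, 35 and 17 for MTCO2P12 (SE 0.56). The other copies were below 0. MTATP6P1 was at 979 and 1046 CPM in control and 852 and 769 CPM in Z325 libraries, a log2 fold change of -0.32, and MTND2P28 fell by a log2 fold change of -0.81 (adjusted p = 0.0405, edgeR). In NCI-H716 all 11 copies tested were below 0 with a median of -0.79. MTCO2P12 fell from 27.3 and 20.4 CPM in control to 9.16 and 6.69 CPM in Z325 libraries, a log2 fold change of -1.60 ± 0.27 (SE, adjusted p = 0.0289, edgeR), while MT-CO2 itself had -0.60. MTATP6P1 had -0.79, while MT-ATP6 had -0.30.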
